A study of Mus musculus with 7 samples.

Results

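Long regions of 5-methylcytosine (5mC) enrichment were examined in cultured mouse hippocampal neurons. A long region was an autosomal interval of the deposited combined region track whose end minus start was 1000 bp or more. These regions were chosen by their measured length. There were 788 such regions among 130882 autosomal regions, and 133337 regions on all chromosomes. Length came from enrichment called in the same libraries, so all values of long against shorter regions are a description and carry no test.

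The neurons came from hippocampi of C57BL/6J embryos at embryonic stage E18.5 and were kept for 11 days in vitro with AraC, an inhibitor of dividing cells. KCl cultures then received 55 mM KCl for 4 h, and untreated cultures received none. High KCl depolarises neurons and is a standard model of neuronal activity. Methylated DNA was pulled down with an antibody and sequenced (MeDIP-seq) in 3 KCl libraries and 3 untreated libraries, and 1 pooled input library was not analysed here. Whether replicate libraries stem from different cultures or embryos is not stated, so p-values measure only how much these libraries differ among themselves, which may be technical. No RNA was measured, so the cell type was not checked against expressed markers. A height can come from few cells with much 5mC or many cells with little, and these cannot be told apart in bulk DNA.

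Most CpG sites of mammalian genomes are methylated, and dense unmethylated CpG islands at gene starts are the main exception. Methylated islands are known at imprinted genes, where the mark sits on the copy from 1 parent, and at germline genes, which are silenced by methylation in somatic cells. Methylation inside gene bodies is common in transcribed and silent genes alike. The pull-down grows with the number of methylated CpGs in a fragment, so both CpG density and methylation level enter a height.

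Long regions that cover a gene start are shown first by sequence, taking in order of mean height those that were also among the 10 highest at gene ends or at an end of a listed gene. Taf7l2 and D1Pas1, with mean heights of 103 and 96.2, were in neither set and are not printed. Each line gives RefSeq's promoter window of 300 bases (250 before and 50 after the annotated start, GRCm38.p6, which has the coordinates of mm10), written 5′ to 3′ on the gene's strand, with each CpG in capitals. All 6 windows lay wholly inside a long region called in every library.
Tmem267 (chr13:119487836-119488135, + strand): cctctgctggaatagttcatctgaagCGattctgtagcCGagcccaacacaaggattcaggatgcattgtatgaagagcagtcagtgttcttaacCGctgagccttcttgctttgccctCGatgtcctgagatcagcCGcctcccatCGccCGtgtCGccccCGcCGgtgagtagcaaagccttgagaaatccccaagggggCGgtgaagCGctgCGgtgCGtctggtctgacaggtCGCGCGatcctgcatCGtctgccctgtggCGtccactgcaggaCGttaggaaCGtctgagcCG
Hsf5 (chr11:87616914-87617213, + strand): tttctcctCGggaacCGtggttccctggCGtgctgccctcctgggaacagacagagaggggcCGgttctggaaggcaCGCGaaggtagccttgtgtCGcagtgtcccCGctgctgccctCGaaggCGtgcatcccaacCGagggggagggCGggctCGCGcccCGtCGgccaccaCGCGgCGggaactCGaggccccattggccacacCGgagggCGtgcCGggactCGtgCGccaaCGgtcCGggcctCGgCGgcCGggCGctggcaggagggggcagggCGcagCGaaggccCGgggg
Tex12 (chr9:50561219-50561518, - strand): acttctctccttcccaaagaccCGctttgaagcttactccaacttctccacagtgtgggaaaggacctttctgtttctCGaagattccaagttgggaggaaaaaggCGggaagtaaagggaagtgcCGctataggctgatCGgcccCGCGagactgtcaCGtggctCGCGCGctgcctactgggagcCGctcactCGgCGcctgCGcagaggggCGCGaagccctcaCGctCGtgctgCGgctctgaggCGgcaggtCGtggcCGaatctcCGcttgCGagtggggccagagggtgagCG
Dazl (chr17:50293571-50293870, - strand): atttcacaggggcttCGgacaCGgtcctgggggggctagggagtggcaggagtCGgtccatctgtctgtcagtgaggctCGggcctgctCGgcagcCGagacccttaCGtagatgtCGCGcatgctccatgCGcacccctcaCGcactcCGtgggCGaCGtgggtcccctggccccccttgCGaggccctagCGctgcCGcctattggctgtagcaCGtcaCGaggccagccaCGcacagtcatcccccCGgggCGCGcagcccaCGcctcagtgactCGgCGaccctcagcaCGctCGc
Mov10l1 (chr15:88982744-88983043, + strand): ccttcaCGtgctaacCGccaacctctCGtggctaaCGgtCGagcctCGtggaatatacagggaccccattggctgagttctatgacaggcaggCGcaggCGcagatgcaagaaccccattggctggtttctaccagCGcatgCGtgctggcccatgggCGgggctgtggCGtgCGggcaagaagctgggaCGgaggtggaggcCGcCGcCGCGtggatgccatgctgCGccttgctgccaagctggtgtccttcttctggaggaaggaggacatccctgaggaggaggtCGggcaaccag
Sycp1 (chr3:102936051-102936350, - strand): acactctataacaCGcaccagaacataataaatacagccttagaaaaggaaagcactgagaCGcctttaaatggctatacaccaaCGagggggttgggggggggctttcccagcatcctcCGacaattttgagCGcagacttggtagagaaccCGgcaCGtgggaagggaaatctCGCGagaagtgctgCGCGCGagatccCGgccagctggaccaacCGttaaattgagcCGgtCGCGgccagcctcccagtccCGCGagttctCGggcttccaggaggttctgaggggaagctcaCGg

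These windows held 20 to 34 CpGs, against a median of 14 over the 20084 promoter windows of protein-coding genes examined. Hsf5, a testis-expressed member of the heat shock factor family, had 34 CpGs and a GC content of 73.3%. Its summit, the position of the highest signal, lay 44 bases before the start in all 6 libraries. Tex12, a central element protein of the synaptonemal complex that joins chromosomes in meiosis, had 26 CpGs, and its summit lay 20 bases after the start in all 6 libraries. Dazl, which binds RNA in developing germ cells, had 28 CpGs and summits 20 to 52 bases after the start. Mov10l1, a helicase of the piRNA pathway that silences transposons in the germline, had 20 CpGs and summits 194 to 210 bases before the start. Sycp1, the transverse filament protein of the synaptonemal complex, had 21 CpGs and summits 324 to 356 bases after the start. In Tmem267, which encodes a transmembrane protein, the summits lay 298 to 874 bases after the start whose window is printed, so they did not coincide between libraries there.

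In all, 23 promoter windows of 20 protein-coding genes lay wholly inside a long region. Their median CpG number was 21 (quartiles 16.5 and 28), against 12 (9 and 18.8) in the 114 windows wholly inside a shorter region and 14 (4 and 25) in the 19473 windows overlapping no region. A window can lie wholly only in a region of at least its own size, which also shapes the set in shorter regions. By the gene lists used here, germline genes were Dazl, Sycp1, Sycp3, Mov10l1, Piwil1 and Fkbp6, and imprinted genes were Gnas, Peg3 and Usp29. Pax6 was listed as a developmental regulator. On no list were D1Pas1, Naa11, Rbmxl2, Tex12, Rfx4, Taf7l2, Hsf5, 4933428G20Rik, Tmem267 and Trim52. Absence from the germline list does not mean that a gene has no germline role, as for Tex12 and Hsf5 above. Short motifs were counted on both strands. The palindrome CACGTG, the canonical E-box, was in 9 of 23 windows (39.1%), against 22.8% of windows wholly inside a shorter region and 7.89% of all windows, and the 9 belonged to Sycp1, Piwil1, Fkbp6 with 2 windows, Rbmxl2, Tex12, Sycp3, 4933428G20Rik and Mov10l1. TCCCGC, a core of E2F sites, was in 10 (43.5%), against 28.95% in shorter regions and 26.3% of all windows. TGCCGC, the core recognised by ZFP57 at imprinted loci, was in 6 (26.1%), against 14.04% in shorter regions and 14.2% of all windows. The 6 belonged to Piwil1, Fkbp6 with 2 windows, Tex12, Taf7l2 and Dazl, and none of the windows of the imprinted genes Gnas, Peg3 and Usp29 held it. TCCCGC and TGCCGC share their last 4 letters but cannot occupy the same 6 bases. Each motif contains a CpG, and windows in long regions had a higher median CpG number, whose part in these shares was not tested. The windows of Fkbp6 overlap each other, as do those of Gnas and those of Peg3 and Usp29. A match in shared bases counts for both windows. A match describes these letters and is not a site of binding.

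Long regions spanned 1000 to 5999 bp, with a median of 1168 bp, against a median of 356 bp for the 130094 shorter regions. Of the 788, 503 were within 250 bp above the threshold, 86 spanned 1500 to under 2000 bp, 24 spanned 2000 to under 3000 bp and 6 were longer. At the threshold itself 3 regions spanned exactly 1000 bp and 4 spanned 999 bp. Those at 1000 bp lay in the genes Tshz2 (chr2:169944367-169945366, mean height 56.3), Erfl (chr7:24936106-24937105, mean height 19.8) and Plekha7 (chr7:116257816-116258815, mean height 16.8). Of the 4 at 999 bp, chr2:84658716-84659714 had a mean height of 85.2, chr4:141980561-141981559 one of 14.2 and chr6:3182511-3183509 one of 56.7. The heights of the named regions on either side of the threshold overlapped.

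The length of a region arose partly from joining the libraries. The combined track merges intervals called per library, and 469 long regions (59.5%) held an interval of 1000 bp or more in at least 1 library. The other 319 were long only after merging. Of all 788, 607 held several intervals in at least 1 library. A merge of the 3 KCl libraries alone gave 432 long regions, and a merge of the 3 untreated libraries gave 544. Leaving out 1 library from the merge of 6 gave 614 (without untreated replicate 2) to 770 (without KCl replicate 3), against 791 with all 6 recomputed here.

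Nearly all long regions were called in every library. All 6 libraries called 703 of 788 long regions (89.2%) and 20.1% of shorter ones, whereas a single library called 1 long region (0.127%) and 29.4% of shorter ones. The share was larger in each longer class, at 59.2% of regions of 500 to under 750 bp, 74.0% of 750 to under 1000 bp, 88.5% of 1000 to under 1500 bp and 93.1% of 1500 bp or more. Regions are joined from the intervals of all libraries, so more calls can lengthen a region, and the part of this in these shares was not tested. Of the 85 long regions missing from some library, 54 were called in 5, and 44 of those were missing only from KCl replicate 3. That library called 90.7% of long and 25.3% of shorter regions. No KCl library called 2 of the regions, which are named although chosen after their values were seen. The first lay in Auts2, a gene linked to autism (chr5:131633649-131634669), with heights of 12, 19 and 12 in untreated replicates 1, 2 and 3. The other lay between genes (chr9:124256641-124257809) and was called in untreated replicate 3 only, with a height of 44. No long region lacked a call in every untreated library. The matching counts over shorter regions are not given here, so these counts are not a result about long regions.

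**Figure D1:**
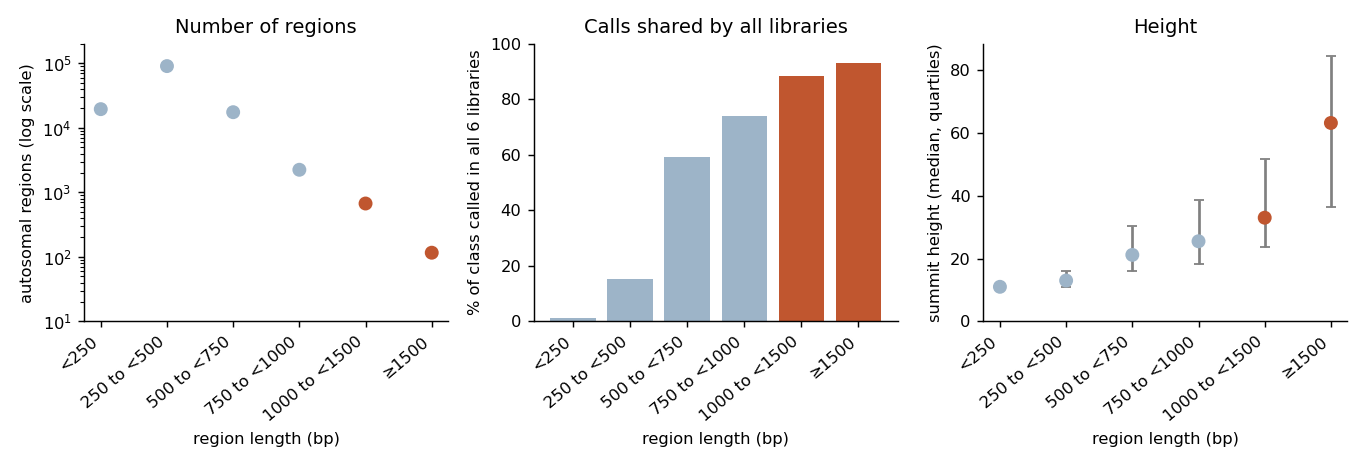
Number of autosomal regions (log scale), percent called in all 6 libraries, and median summit height with quartiles, by region length in bp, with long classes in orange and shorter classes in blue. The median height was 33.0 in the class of 1000 to under 1500 bp and 63.2 in that of 1500 bp or more, and the shares called in all 6 libraries were 88.5% and 93.1%.

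Heights, which are whole numbers of at least 6 whose scaling is not stated, were larger in long regions. The height of a region in a library is that of its highest summit. The median of the mean heights was 35.4 (quartiles 24.3 and 56.3) in long regions and 13 (11 and 17) in shorter ones. Among regions called in all 6 libraries the medians were 38.7 and 23.8. Longer regions hold more positions from which the highest is taken, and the part of this in the difference was not tested. Within the 788 long regions, Spearman's rho of length with mean height was 0.287, given as a description since both come from the same libraries. The 319 regions that were long only through merging had a median height of 29.5, against 42.5 for the 469 with a long interval of their own.

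A larger share of long than of shorter regions lay at genes. A gene end was counted when a region came within 1 kb of either end of a protein-coding gene, and gene bodies, other genes (such as noncoding genes) and intergenic positions were assigned in that order to the rest. Gene ends took 129 long regions (16.4%, 95% Wilson interval 13.95% to 19.12%) and 4.53% of shorter ones. Gene bodies took 462 (58.6%) and 48.9%, other genes 52 (6.60%) and 9.26%, and intergenic positions 145 (18.4%) and 37.3%. These intervals cover counting error only. A longer region reaches a window more easily, and by the midpoint of the region alone the gene-end shares were 9.26% of long and 3.77% of shorter regions. That alternative was chosen after the data were seen. Among regions called in all 6 libraries, 16.9% of long and 5.52% of shorter regions lay at gene ends, and 16.8% and 33.2% were intergenic.

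Of all long regions, 36 (4.57%) were at the start of a gene of known strand and 70 (8.88%) at the far end of one. The shares of all shorter regions were 1.38% and 2.45%. Genes without a known strand were not counted. Promoter windows of protein-coding genes were overlapped by 31 long regions (3.93%) and by 0.430% of shorter ones. Inside genes of known strand the midpoints of long regions leaned to the far end. Of 442 long and 52864 shorter regions, 38.5% and 24.6% lay in the last of 5 equal parts of the gene, and 11.8% and 16.9% in the first. Gene-end regions were the highest class of long regions, with a median height of 45.5, against 35.3 in gene bodies, 32.9 in other genes and 30.3 between genes. Intergenic long regions lay a median of 48.9 kb from the nearest protein-coding gene. The farthest, 1220 kb from Lingo2 (chr4:38171525-38172624), had heights of 16, 12 and 11 in the KCl libraries and of 17 and 18 in untreated replicates 1 and 3, with no call in untreated replicate 2.

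**Figure D2:**
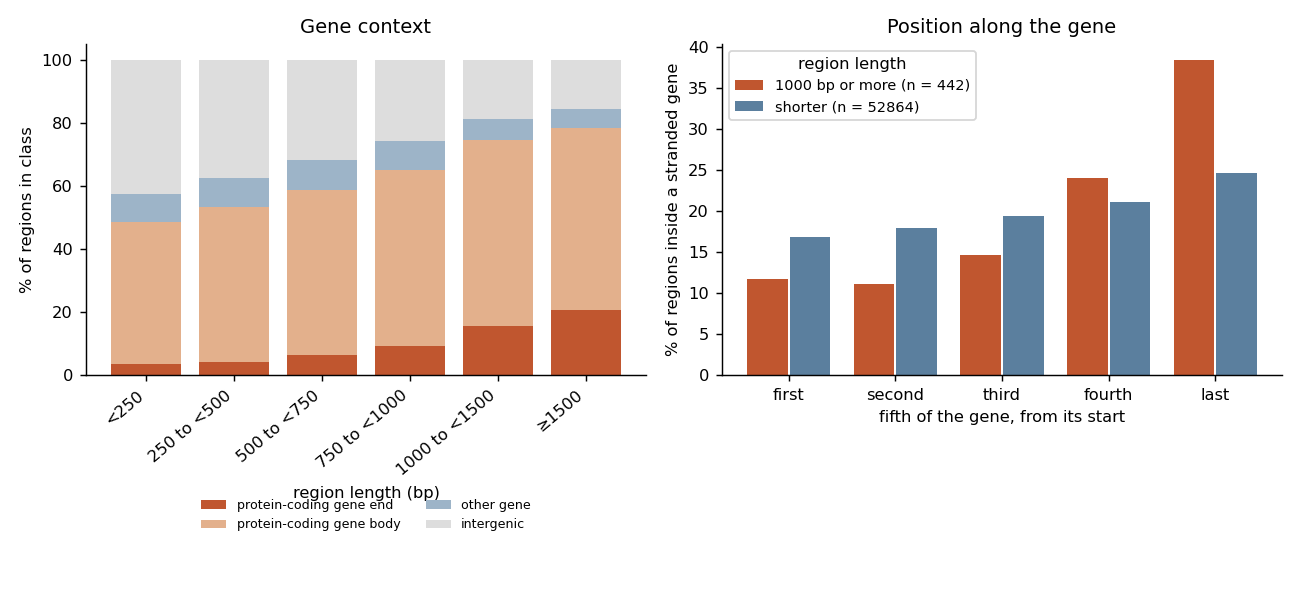
Left, percent of autosomal regions in each length class (bp) by gene context, and right, percent of regions inside genes of known strand by position in 5 equal parts of the gene from its start, for regions of 1000 bp or more (orange) and shorter (blue). Gene ends made up 20.7% of regions of 1500 bp or more, and the last part of the gene held 38.5% of long and 24.6% of shorter regions.

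By chromosome, long regions made up 1.08% of the regions of chromosome 7, the highest share, and 0.312% of those of chromosome 14, the lowest. Genes whose symbols begin with Zfp, most of which encode zinc finger proteins, held 34 long regions in their bodies (4.31%) and 930 shorter ones (0.715%). The 5 Mb next to chromosome starts, which in mouse adjoin the centromeres, held 21 long regions (2.66%) and 1.31% of shorter ones.

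The longest region of the set lay at ribosomal RNA sequence. It spanned 5999 bp (chr17:39842872-39848870) over AY036118 and Rn18s-rs5, an 18S ribosomal RNA related sequence. Its heights were 421, 325 and 295 in KCl replicates 1, 2 and 3, against 362, 395 and 280 in untreated replicates 1, 2 and 3. Each library called it as 1 interval of 5884 to 5989 bp, so its length did not depend on merging. Ribosomal RNA sequence occurs in many copies, and the treatment of reads matching several places is not given in the sources used here. Its heights are uncertain. The same holds for any other long region of repeated sequence. Repeats were not examined here, and heights were not compared with the pooled input.

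The next longest region, of 5622 bp (chr15:76176370-76181991), lay in Plec, which encodes plectin, a linker of cytoskeletal filaments. Heights were 137, 110 and 77 with KCl, against 129, 144 and 111 untreated. KCl replicate 1 called it nearly whole, in an interval of 5614 bp, whereas the other 5 libraries split it into 3 or 4 intervals of at most 3534 bp. A further long region of Plec, of 2511 bp (chr15:76173750-76176260), lay directly before it.

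Of the 10 longest regions, 3 lay at or near Sfi1, a centrin-binding protein of the centrosome, in the 5 Mb next to the start of chromosome 11. At the gene's end a region of 5024 bp (chr11:3131220-3136243) had heights of 169, 131 and 131 with KCl, against 144 and 141 in untreated replicates 1 and 2, and it was not called in untreated replicate 3. Inside the gene a region of 3709 bp (chr11:3191664-3195372) had heights of 331 and 267 in KCl replicates 1 and 2, against 308, 321 and 219 untreated, and it was not called in KCl replicate 3. A region of 4506 bp outside it (chr11:3100029-3104534) had heights of 182, 125 and 92 with KCl, against 169, 168 and 123 untreated. All 4 regions of Sfi1 itself were long, their mean heights ran from 129 to 289, and only 1 of the 4 was called in all 6 libraries. Calls counted only intervals lying wholly inside a region, so an interval crossing its edge would appear as a missing call, which was not examined. By this count, missing calls there went with high heights in the libraries that did call them.

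The other 5 of the longest regions were called in all 6 libraries. At chr14:19415521-19419738, 113962 bp from Gm2244, a region of 4218 bp had heights of 244, 193 and 172 with KCl, against 220, 227 and 180 untreated. At chr9:3025005-3027886, 307345 bp from Alkbh8, a region of 2882 bp had heights of 219, 201 and 163 with KCl, against 195, 213 and 163 untreated. The zinc finger gene Zfp865 held a region of 2965 bp (chr7:5029238-5032202) with heights of 138, 102 and 63 with KCl, against 117, 140 and 87 untreated. Elfn1, which encodes a postsynaptic adhesion protein, held one of 2624 bp (chr5:139970978-139973601), centred at 96.4% of the gene's length, with heights of 61.3 ± 11.5 with KCl and 72.7 ± 14.6 untreated (SD, n = 3 each). At chr12:20231546-20234416 a region of 2871 bp had heights of 100 ± 38.2 with KCl and 106 ± 22.3 untreated. In all 5 the range of the KCl heights overlapped that of the untreated heights.

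Protein-coding genes with a long region at an end numbered 142 of 21896 (0.649%), and 579 (2.64%) had one at an end or in the body. Among gene-end regions called in all 6 libraries Tmem267 was highest, at chr13:119487671-119489381 (1711 bp), with heights of 332, 251 and 212 with KCl, against 287, 322 and 225 untreated. The region also covered the start of the noncoding gene 3110070M22Rik. At the far end of Begain, a brain-enriched partner of guanylate kinase scaffolds, a region of 1566 bp (chr12:109033068-109034633) had heights of 183, 132 and 100 with KCl, against 174, 193 and 128 untreated. The region of 1304 bp at the start of Hsf5, also within 1 kb of the phosphatase gene Mtmr4 (chr11:87616764-87618067), had heights of 182, 145 and 86 with KCl, against 178, 191 and 115 untreated.

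At Tex12 (chr9:50560572-50561583), in a region that also overlapped Il18, heights were 177, 152 and 103 with KCl, against 146, 179 and 131 untreated. At Dazl (chr17:50293063-50294077) heights were 171, 134 and 94 with KCl, against 153, 186 and 120 untreated. Neither region reached 1000 bp in any single library: the longest interval was 720 bp at Tex12 and 972 bp at Dazl. The other regions of the highest 10 at gene ends, among those called in all 6 libraries, were at Gm46731 (mean height 137), Fam50b (137), the chondroitin sulfotransferase gene Chst13 (126), Ankrd9 (121) and the galactose sulfotransferase gene Gal3st3 (108). The Sfi1 gene-end region, called in 5 libraries, had a mean height of 143.2 and is outside this ranking. At all 10 the ranges of the groups overlapped, and KCl replicate 3 was the lowest of the 6 libraries.

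**Figure D3:**
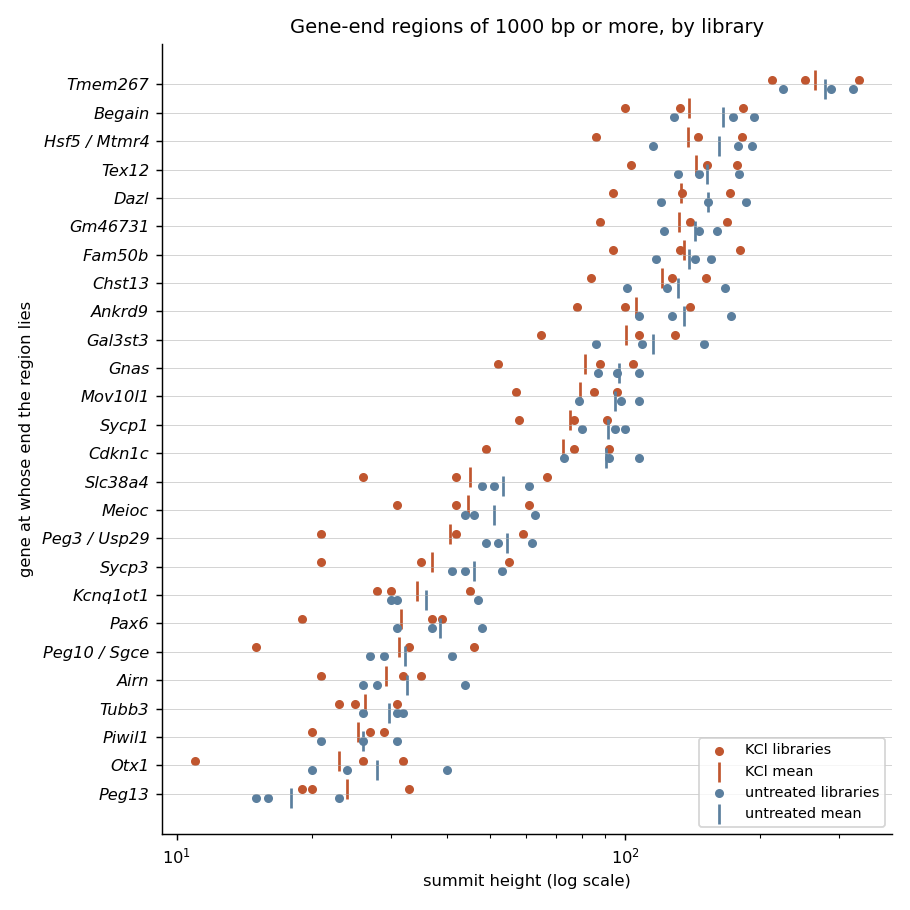
Summit height (log scale) in each library for the long regions at gene ends named in the text, with KCl libraries in orange above untreated libraries in blue and a vertical tick at each group's mean (n = 3 each). The ranges of the groups overlap in every row shown, from Tmem267 at 212 to 332 down to Peg13 at 15 to 33.

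Among 47 imprinted genes of a list drawn up for this series, 10 had a long region at an end and 16 at an end or in the body. Cdkn1c, the cell cycle inhibitor p57, had one of 2233 bp at its end (chr7:143459425-143461657), with heights of 92, 77 and 49 with KCl, against 92, 107 and 73 untreated. Gnas, the stimulatory G protein subunit with several imprinted transcripts, held 5 long regions, all called in all 6 libraries, with mean heights of 35.5 to 89. The highest of them (chr2:174284511-174285639) had heights of 104, 88 and 52 with KCl, against 96, 107 and 87 untreated. Grb10, a growth factor receptor adaptor, held one in its body (chr11:12025352-12026975), with heights of 91, 71 and 49 with KCl, against 86, 99 and 68 untreated. The ranges of the groups overlapped at each of these 3 regions.

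The shared start of Peg3 and Usp29 (chr7:6729843-6730893) had heights of 59, 42 and 21 with KCl, against 49, 62 and 52 untreated. The noncoding transcripts Airn, inside Igf2r (chr17:12741311-12742771), and Kcnq1ot1, inside Kcnq1 (chr7:143295020-143296679), silence their neighbours on the paternal copy. The Airn region had heights of 35, 32 and 21 with KCl, against 28, 44 and 26 untreated. The Kcnq1ot1 region had heights of 45, 30 and 28 with KCl, against 30, 47 and 31 untreated. Peg10 with Sgce and the amino acid transporter gene Slc38a4 had mean heights of 31.8 and 49.2. Of the 7 protein-coding imprinted genes counted at an end, Peg10 and Sgce share a region, as do Peg3 and Usp29, so genes are not independent here.

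Of 38 germline genes, 6 had a long region at an end (15.8%) and 9 at an end or in the body (23.7%), against 0.649% and 2.64% of all protein-coding genes. A region of any length lay at an end of 28 of the 38, and of 5401 of all 21896 protein-coding genes. The germline list, like the others, was chosen with earlier results of these data known, so these shares are a description. Mov10l1 (chr15:88982383-88983492) had heights of 96, 85 and 57 with KCl, against 98, 107 and 79 untreated. Its region also lay at an end of Mlc1. Sycp1 (chr3:102935272-102936422) had heights of 91, 77 and 58 with KCl, against 95, 100 and 80 untreated, and each library called it as 1 interval of 1023 to 1132 bp. Sycp3, an axial protein of meiotic chromosomes (chr10:88459224-88460636), had heights of 55, 35 and 21 with KCl, against 44, 53 and 41 untreated. Meioc, a regulator of meiotic entry, and Piwil1, a piRNA-binding protein, had mean heights of 47.8 and 25.7. Germline gene-end regions thus covered heights from 25.7 at Piwil1 to 143 at Dazl.

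In the other lists long regions lay mostly in gene bodies, with shares at an end or in the body from 0% to 26.7%, against 2.64% of all protein-coding genes. None of 39 Hox genes, 18 genes of the DNA methylation machinery, 3 Gadd45 genes, 9 astrocyte markers and 11 microglia markers had one. Of 62 other developmental regulators, Pax6 and Otx1 had one at an end and En1, Tbx5 and Sim2 in the body only. Of 58 clustered protocadherins 14 had one in the body and 0 at an end, and most of these are nested Pcdha genes that share 7 regions on chromosome 18. Of 24 immediate early genes, the activity-induced transcription factors Egr1 and Nr4a1 had one in the body. The Egr1 region (chr18:34862827-34863861) had heights of 40, 36 and 24 with KCl, against 37, 46 and 33 untreated. The Nr4a1 region (chr15:101270013-101271092) had heights of 18, 23 and 16 with KCl, against 23, 24 and 23 untreated. The groups overlapped or met at both. Of 32 genes of TGF-beta signalling, the Smad co-repressor Ski and the latent binding protein Ltbp4 had one in the body.

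Of 15 neuron markers, Tubb3 (a neuronal tubulin) had a long region at an end and Rbfox3, Prox1 and Bcl11b in the body. The Rbfox3 gene encodes NeuN, and its region (chr11:118868423-118869532) had heights of 107, 81 and 77 with KCl, against 87, 99 and 92 untreated. Bcl11b, a transcription factor of deep-layer and hippocampal neurons, held 3, of which the longest (2556 bp, chr12:107915169-107917724) had heights of 158, 122 and 87 with KCl, against 141, 166 and 116 untreated. Of 12 oligodendrocyte markers, Cspg4 alone had one, in the body, with a mean height of 72.0.

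Few genes held several long regions, and 65 of the 788 had another within 10 kb. Apart from the nested protocadherins, Gnas and Zfhx3 held 5 each, Fat1 and Sfi1 held 4 each, and Auts2, Bcl11b, Lmtk3 and Spen held 3 each. The regions of Zfhx3, a zinc finger homeobox factor, were 5 of 128 in a gene of 682 kb, with mean heights of 19.3 to 68.2. The last 2 lay side by side at 98.2% and 98.4% of the gene's length. Those of Fat1, a giant cadherin, were 4 of 34 in 119 kb, with mean heights of 35.5 to 70.8. Those of Lmtk3, a neuronal kinase, were 3 of 6 in 21.0 kb, and lay side by side between 44.0% and 57.2% of the gene's length with mean heights of 24.8 to 67.3. Those of Spen, a transcriptional co-repressor, were 3 of 15 in 70.8 kb, at 84.6% to 92.5% of the gene's length.

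The KCl comparison asked whether depolarisation for 4 h altered these regions. KCl libraries 1, 2 and 3 called 784, 762 and 715 long regions (753.7 ± 35.2), against 781, 783 and 773 in the untreated libraries (779.0 ± 5.29; SD, n = 3 each). The difference was -25.3 (exact permutation p = 0.4, two-sided, where 3 against 3 cannot go below 0.1). Leaving out KCl replicate 1 gave -40.5, and leaving out KCl replicate 3 gave -6.00. The combined regions include each library's own intervals, so both groups took part in choosing them. In the same libraries 69.1%, 44.8% and 25.3% of shorter regions were called with KCl, against 64.0%, 64.7% and 53.7% untreated, and the part of these totals in the long regions was not tested. The share of long regions called thus ran from 90.7% to 99.5% over the 6 libraries and that of shorter regions from 25.3% to 69.1%.

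Long regions made up 0.864%, 1.29% and 2.13% of the regions called in KCl libraries 1, 2 and 3, against 0.929%, 0.921% and 1.09% in untreated libraries (exact permutation p = 0.4). With equal numbers of the highest intervals kept per library, 34834 each, the difference of 0.445 percentage points became -0.00561. The KCl libraries had 296, 141 and 83 intervals of 1000 bp or more before merging, against 173, 321 and 182 in untreated libraries. The difference of -52.0 was within the spread of the groups (exact permutation p = 0.5) and was -113 without KCl replicate 1, -6.83 without KCl replicate 3 and -4.17 without untreated replicate 2. In long regions called in all 6 libraries, the length covered by a library's own intervals averaged 935 ± 164 bp with KCl and 1032 ± 68.9 bp untreated (exact permutation p = 0.4).

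Mean height over long regions called in all 6 libraries was 59.1, 45.8 and 33.2 in KCl libraries 1, 2 and 3 (46.0 ± 12.95), against 52.0, 60.7 and 45.1 in untreated libraries (52.6 ± 7.83). The difference of -6.57 was within the spread (exact permutation p = 0.5). Leaving out a library changed it to -13.1 without KCl replicate 1, -0.121 without KCl replicate 3, -2.52 without untreated replicate 2 and -10.3 without untreated replicate 3. Over regions called in all 6 libraries, the ratio of the median height of long to that of shorter regions, taken within each library, was 1.59, 1.64 and 1.56 with KCl, against 1.58, 1.66 and 1.57 untreated. These ratios averaged 1.60 ± 0.0377 with KCl and 1.60 ± 0.0489 untreated (exact permutation p = 0.9). Over all regions that a library called, the medians of long regions were 43, 34 and 25 with KCl, against 39, 45 and 33 untreated, and those of shorter regions were 16, 15 and 14 with KCl, against 15, 16 and 15 untreated. The share of called long regions at gene ends was 16.6% ± 0.251 with KCl and 16.4% ± 0.115 untreated (exact permutation p = 0.4). Over the 7 values compared in this way the Benjamini-Hochberg adjusted p ran from 0.583 to 0.9 by exact permutation.

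**Figure D4:**
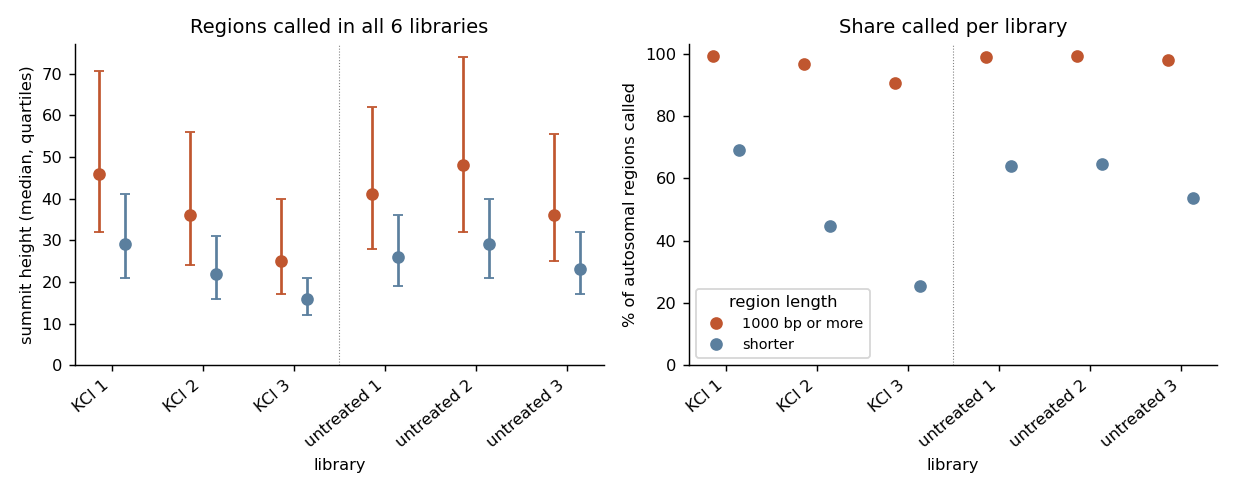
Left, median summit height with quartiles of regions called in all 6 libraries, and right, percent of autosomal regions called, in each KCl and untreated library, for regions of 1000 bp or more (orange) and shorter (blue). KCl replicate 3 called 90.7% of long and 25.3% of shorter regions, and the long median lies above the shorter one in every library.

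Region by region, no long region passed the threshold. Heights as log2(height + 1) were compared with limma over 20537 regions called in all 6 libraries with a mean height of at least 18.7, which included 667 of the 703 long regions called in all 6. At an adjusted p under 0.05 there were 0 long regions (0% of all tested regions), where the smallest adjusted p was 0.932. In the brackets that follow, the share of the 667 long regions comes first and that of all tested regions second. With limma's unadjusted p under 0.05, 0 long regions were higher (0%, against 0% of all tested) and 2 lower (0.3%, against 1.12%). After median centring of the libraries these limma counts were 24 higher (3.6%, against 1.97% of all tested) and 5 lower (0.75%, against 1.67%). Of these, 0 passed the adjusted threshold. All 3 KCl heights were above all 3 untreated heights in 0 long regions (0%, against 0.0292% of all tested). They were below in 17 (2.55%, against 4.14%). After centring the counts were 40 above (6%, against 4.67% of all tested) and 20 below (3%, against 3.89%).

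The median log2 change with KCl was -0.23 over the 667 long regions and -0.25 over all tested regions. Relative to the overall median, 364 long regions were higher and 303 lower, with a median of 0.02. Over the 105 tested regions of 1500 bp or more the median log2 change was -0.21, with 67 above and 38 below the overall median. The median of long regions was -0.43 without KCl replicate 1, -0.01 without KCl replicate 3, -0.13 without untreated replicate 2 and 0.02 after centring. Without KCl replicate 1, 92 of 669 long regions and 4325 of 20796 regions were lower at an unadjusted p under 0.05 by limma, with 0 past the adjusted threshold.

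The long regions of lowest limma p after median centring, on either side of the overall median, are given although none passed. For these, changes are relative log2 changes with SEs after centring, and the limma adjusted p was 0.932 to 0.998 as deposited and 1.00 centred. With heights as deposited, the unadjusted limma p ran from 0.29 to 0.987 in the higher regions and from 0.033 to 0.116 in the lower ones. The imprinted noncoding gene Peg13, inside Trappc9 (chr15:72809348-72810541), had heights of 33, 20 and 19 with KCl, against 16, 23 and 15 untreated, a relative log2 change of 0.62 (SE 0.23). KCl replicate 1 was the highest of the 6 libraries there, and the groups overlapped. The relative log2 change was 0.25 (SE 0.08) in the ribosomal RNA region of chromosome 17, 0.28 (SE 0.09) at chr9:3025005-3027886, 0.28 (SE 0.11) at chr9:3031786-3032796 and 0.21 (SE 0.08) at chr11:3149394-3151713 in Sfi1. At these 4 the mean heights as deposited differed between the groups by less than the SD of either group.

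Among the lower regions, Bend3, a chromatin repressor gene, held one (chr10:43510875-43512102) with heights of 55, 43 and 30 with KCl, against 66, 77 and 61 untreated, a relative log2 change of -0.45 (SE 0.14). All 3 KCl heights there were below all 3 untreated heights. Abcc10, a drug transporter gene (chr17:46305439-46306547), had heights of 42, 26 and 15 with KCl, against 46, 45 and 39 untreated, a relative log2 change of -0.49 (SE 0.18). At chr12:105278517-105279863, 55780 bp from Tcl1, heights were 30, 18 and 11 with KCl, against 29, 32 and 34 untreated, a relative log2 change of -0.52 (SE 0.21). Rab4a, a GTPase of recycling endosomes, and Slc27a1, a fatty acid transporter gene, had relative log2 changes of -0.41 (SE 0.18) and -0.30 (SE 0.14).

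**Figure D5:**
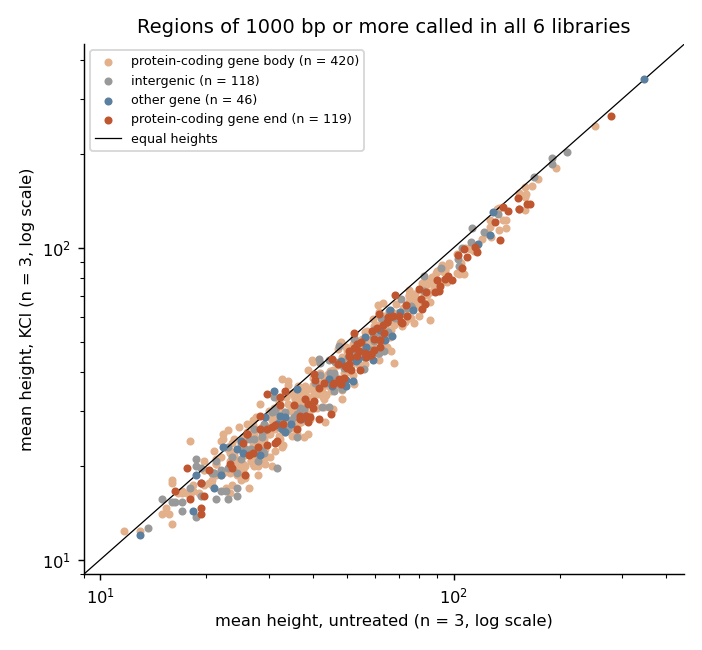
Mean summit height in KCl libraries against that in untreated libraries (log scales, n = 3 each) for the 703 long regions called in all 6 libraries, coloured by gene context, with the line of equal heights. Most points lie below the line, and the median log2 change over the tested regions was -0.23.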

How the data were processed

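MeDIP-seq was done on 3 KCl and 3 untreated libraries, and the pooled input was not analysed. The submitters' processing notes name mm10, BWA and SICER and give no versions. Library construction and analysis were done by a company, per the labels' protocols. The deposited file held 13 tracks, per the file headers: 6 of called intervals, 6 of summits with a height, and 1 of regions merged over the libraries. The heights deposited by the authors are a signal in whole numbers of unstated scaling. Read totals, and so depth and its precision, are unknown, and no counting interval for heights is given.

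Each region took the height of its highest summit per library. Only intervals lying wholly inside a region counted as calls of it, and intervals crossing an edge were not counted. Gene positions came from the RefSeq table of GRCm38.p6, and strands and starts from its promoter table, which covers 17491 of 21896 protein-coding genes, so exons and UTRs were not assigned. Coordinates are 1-based. Heights were fitted with limma 3.58.1 (R 4.3.3) with an intensity trend and Benjamini-Hochberg adjustment over all regions tested, and single values per library with exact permutation tests (scipy 1.17.1). Only the fit after median centring was tried on simulated heights, so that trial does not bear on the fit as deposited. Fold changes on the log2(height + 1) scale understate changes of low regions. Regions missing from any library, or below the 25th percentile of mean height, were not tested.

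The members and lists were chosen with earlier results of these data known. Named regions were the 10 longest, the 10 highest at gene ends among those called in all 6 libraries, and those at ends of list genes. Others were the 5 of lowest limma p after centring in each direction relative to the median. The 3 on each side of 1000 bp and the genes with most long regions were also named. Further list genes with one in the body were chosen after their values were seen. Deviations of same-numbered libraries from their group means correlated at 0.113, 0.108 and 0.114 over regions, all above 0.1. Those of unlike-numbered libraries correlated at -0.0882 to -0.0137. What a number stands for is not labelled. The main limma fit and the exact permutation tests did not use the numbers as pairs. Pairing by number entered only the replicate block and the sign flips. Alternatives were other lengths, windows, pseudocounts, filters, centring, equal interval numbers, a replicate block and leaving out each library.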

Additional observations from a re-analysis of the deposited data

How the results depend on the processing

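No long region passed the adjusted threshold under any of the limma settings tried, and the long regions called, mean height, single-library intervals and gene-end share kept their direction in all alternatives. The difference in the share of called regions that are long turned to -0.00561 with equal numbers of intervals. The difference in the ratio of long to shorter median heights, -0.00408 as reported, was 0.124 with regions of 1500 bp or more and ran from -0.0447 to 0.0537 when each library was left out, so its direction changed with these choices. The median log2 change of long regions ran from -0.43 to -0.01 when each library was left out and was 0.02 after centring. The gene-end share was 20.7% at 1500 bp or more, 11.7% with a window of 500 bp, 26.0% with 2 kb and 9.26% by midpoint. The intergenic share was 15.5% at 1500 bp or more and 15.6% for regions with a long interval in 1 library.

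With the replicate number as a block the difference in long regions called was -25.3 (sign flips over 3 pairs, exact p = 0.5, smallest possible 0.25), and limma called 0 long regions. The lowest adjusted p among long regions, with block and centring, was 0.787 by limma. The block changed no other call. Unknown depth limits all heights. The block with centring, leaving out a library with centring, the midpoint rule and merging without a library were chosen after seeing the data.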
